A study of Mus musculus with 4 samples.

Results

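The alpha and beta tubulin genes Tuba1a, Tuba1b, Tuba1c, Tuba3a, Tuba3b, Tuba4a, Tubb2a, Tubb2b, Tubb3 and Tubb5 were followed across the cells of the postnatal day 8 (P8) mouse testis. They are 10 of the 30828 genes in the deposited matrices. They were taken by symbol. The set had been chosen by its UMI levels across germ stages and somatic cell types and between genotypes in these same data, so levels and ratios are given as a description with no test.

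Microtubules are polymers of heterodimers, each made of 1 alpha and 1 beta tubulin, and they form the mitotic spindle, the tracks of intracellular transport and the core of cilia and flagella. Mammals encode several isotypes of each subunit from separate genes, and cell types differ in the mix they use: Tuba3a and Tuba3b are best known from the testis, Tubb3 and Tubb2b from neurons, and Tuba1b and Tubb5 from most dividing cells. Cells also regulate tubulin mRNA by its own product. When free heterodimers are in excess, TTC5 recognises the start of a nascent tubulin chain on the ribosome, and with SCAPER and CNOT11 it brings the CCR4-NOT deadenylase complex to that mRNA, which is then degraded. CNOT3, the protein whose gene was deleted here, is a subunit of CCR4-NOT.

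The coding starts are shown because they encode the stretch that TTC5 reads. Each line gives the first 24 coding bases of the principal transcript in the GENCODE M21 annotation of GRCm38 (mm10), 5′ to 3′, with the first 4 codons in capitals. The 6 alpha genes used 3 different versions of these 4 codons, and Tuba1a and Tuba1c matched Tuba1b there, as Tuba3b matched Tuba3a. Each of the 4 beta genes had its own version. These differences are synonymous: every alpha version encodes Met-Arg-Glu-Cys and every beta version Met-Arg-Glu-Ile.
Tuba1b: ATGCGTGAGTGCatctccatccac
Tuba3a: ATGCGTGAGTGTatctctatccac
Tuba4a: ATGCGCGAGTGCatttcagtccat
Tubb2a: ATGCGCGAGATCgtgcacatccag
Tubb2b: ATGCGAGAGATCgtgcacattcag
Tubb3: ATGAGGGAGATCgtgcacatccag
Tubb5: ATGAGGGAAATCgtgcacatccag

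The coding ends are shown because isotypes differ most in the tail they encode, which projects from the microtubule surface and carries many of its modifications. Each line gives, for 8 of the genes, the last 27 coding bases before the stop codon, with the last codon in capitals. In 5 of the 6 alpha genes this codon encodes tyrosine, the residue that vasohibins remove and tubulin tyrosine ligase adds back, and Tuba4a is the exception. Tuba3b matched Tuba3a in all 27 bases.
Tuba1b: gagggggaggaagaaggagaggagTAC
Tuba1c: gaaggagacgatgagggtgaggaaTAT
Tuba3a: gcagaggcagaagaaggggaggagTAC
Tuba4a: tatgaggacgaggatgagggagaaGAG
Tubb2a: gaggaggaggagggtgaagatgagGCT
Tubb2b: gaggaggaagagggcgaggatgagGCT
Tubb3: gaggaatcggaagcccaggggcccAAG
Tubb5: ttcggagaggaggcagaagaggagGCC

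All 10 genes are annotated as protein coding. Tuba1b (chr15:98931425-98934565), Tuba1a (chr15:98949837-98953703) and Tuba1c (chr15:99029891-99038110) lie close together, as do Tubb2a (chr13:34074274-34078007) and Tubb2b (chr13:34126748-34130466). Tuba3a (chr6:125278274-125286042) and Tuba3b (chr6:145615757-145621479) share a chromosome but are far apart. Tuba4a lies at chr1:75214228-75219865, Tubb3 at chr8:123411424-123422015 and Tubb5 at chr17:35833921-35838306. The assay counts tags near the 3′ end of an mRNA, so likeness between paralogs there bears on which gene a tag is given to. Over the last 300 transcript bases, Tuba3a and Tuba3b were 94.3% identical and shared an exact run of 179 bases, so the split of counts between this pair is uncertain. The last 300 bases of Tuba1b shared runs of 96 bases with Tuba1a and 94 bases with Tuba1c at 64% and 62.7% identity. Tubb2a and Tubb2b, 96.5% identical in coding sequence, shared no run over 8 bases there.

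The data are single-cell counts of unique molecular identifiers (UMIs, 1 per captured mRNA molecule) from testis cells sorted for CD9 and THY1, and levels are given as CPM, UMIs of a gene per 1000000 UMIs of the class. Every mouse received 4OHT, the active form of tamoxifen, from P1. The labels give a last injection day of 1 and 2 for the control samples and 3 and 4 for the Cnot3-cKO samples, whereas the study's methods describe a single neonatal schedule ending at P3, and which applied here is not settled. Controls are labelled wild-type and described in the design text as Cnot3flox/flox without Cre, and the Cnot3-cKO mice as Cnot3flox/flox with Ddx4-creER, a Cre driven by the promoter of a germ cell gene, so that somatic cells are not its target. The 2 samples per genotype had been merged into 1 matrix each with no map from cell to sample, so each genotype is 1 library and nothing between genotypes could be tested. Their titles begin with NS or NOV, and the study sequenced on NextSeq and NovaSeq systems. Whether the 2 samples are separate mice or sequencing runs is not settled. Each interval below is an exact 95% interval that covers counting error only. Fewer mRNA molecules of a gene and a changed total of all others cannot be told apart in CPM.

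The control and Cnot3-cKO libraries kept 8259 and 9268 cells with median depths of 14475 and 13150 UMIs, and 18 barcodes occurred in both. Of these, 1123 and 464 were germ-like, 2885 and 4362 Sertoli-like and 3704 and 3936 interstitial, so most sorted cells were somatic. The summed germ cell markers were at 2687 CPM in control germ-like cells against 27.7 in Sertoli-like and 22.2 in interstitial cells. Cnot3 itself was at 70.1 CPM in germ-like cells of the control and 37.6 in those of the Cnot3-cKO library, against 63.8 and 67.5 in Sertoli-like and 45.5 and 45.0 in interstitial cells. Classes are called X-like because they were named from marker genes after clustering without tubulin genes. The stem-like class needs care: in control 343 of its 344 cells, and in Cnot3-cKO 39 of 311, lay in 1 cluster, and the other 272 Cnot3-cKO cells lay in a cluster with 1 control cell.

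Germ cells and somatic cells used nearly separate sets of alpha tubulin genes. Tuba3a, an alpha isotype gene of the testis, was at 870.5 CPM in control germ-like cells (862 to 879), 6.05 in Sertoli-like and 4.00 in interstitial cells, a fold of 144 and 218. In the Cnot3-cKO library the same classes held 1063, 2.15 and 1.73. Tuba3b, its near copy, was at 649, 4.43 and 3.18 in control and at 819.9, 1.70 and 1.90 in Cnot3-cKO. The somatic values of both genes were of the order that free RNA in the droplets gives: from the profile of empty barcodes, Tuba3a would reach 4.32 CPM in control and 2.60 in Cnot3-cKO Sertoli-like cells, and 8.70 and 5.61 in interstitial cells. The estimates are rough, since the measured value was above them in control Sertoli-like cells and below them in interstitial cells. No somatic expression was read from Tuba3a and Tuba3b, and free RNA, doublets and low expression were not told apart.

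Tuba4a, the alpha isotype gene without a final tyrosine codon, was a low germ cell gene, at 28.1 CPM in control germ-like cells (26.6 to 29.7) and 35.9 in Cnot3-cKO. It held 0.51 and 0.62 in Sertoli-like cells and 0.40 and 0.29 in interstitial cells. Macrophage-like cells were the exception among somatic cells, with 25.3 in control and 16.7 in Cnot3-cKO from 31 and 19 UMIs.

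The Tuba1 genes had the opposite pattern. Tuba1a, an alpha isotype gene abundant in the developing brain, was highest in interstitial cells at 481.5 in control and 347.5 in Cnot3-cKO, followed by Sertoli-like cells at 237 and 190.5, and reached only 15.6 and 23.2 in germ-like cells. Tuba1b, the broadly used alpha gene, was highest in Sertoli-like cells at 548 and 469, then in interstitial cells at 361 and 286, and lay at 84.6 and 61.1 in germ-like cells. Tuba1c, another close relative, was at 103 and 85.8 in Sertoli-like cells, 15.2 and 9.96 in interstitial cells and 9.73 and 15.1 in germ-like cells. The germ-like values of Tuba1c and Tuba1a were low but above the 0.82 and 6.70 that free RNA would give in control. That estimate is rough, so how much of these values came from somatic RNA is not settled.

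Among beta genes, Tubb5 was shared by every class and was the most abundant member in Sertoli-like and interstitial cells. Sertoli-like cells held 1044 CPM for control and 861 for Cnot3-cKO, against 691 and 555 in interstitial cells, and 683 and 652.5 in germ-like cells. The control values of interstitial (684 to 698) and germ-like cells (675 to 690.3) did not differ beyond their counting intervals. Tubb3, the neuronal beta isotype, stood out in Sertoli-like cells, at 67.5 and 61.3, against 3.33 and 2.38 in interstitial and 2.81 and 3.17 in germ-like cells, so that control Sertoli-like cells held 20.3 times the interstitial level.

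The Tubb2 pair differed in place although the coding sequences are close. Tubb2a was highest in the rare somatic classes, at 196 in control and 129 in Cnot3-cKO endothelial-like cells and 113 and 173 in macrophage-like cells, followed by interstitial cells at 76.6 and 56.1, with 12.02 and 9.73 in Sertoli-like and 17.2 and 16.6 in germ-like cells. Tubb2b was of a similar level in Sertoli-like cells, at 33.0 in control, and interstitial cells, at 27.7 in control and 18.0 in Cnot3-cKO. Within the interstitium Tubb2b was a stroma gene, at 43.9 and 30.1 in stroma-like against 2.66 and 1.45 in myoid-like cells.

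**Figure D1:**
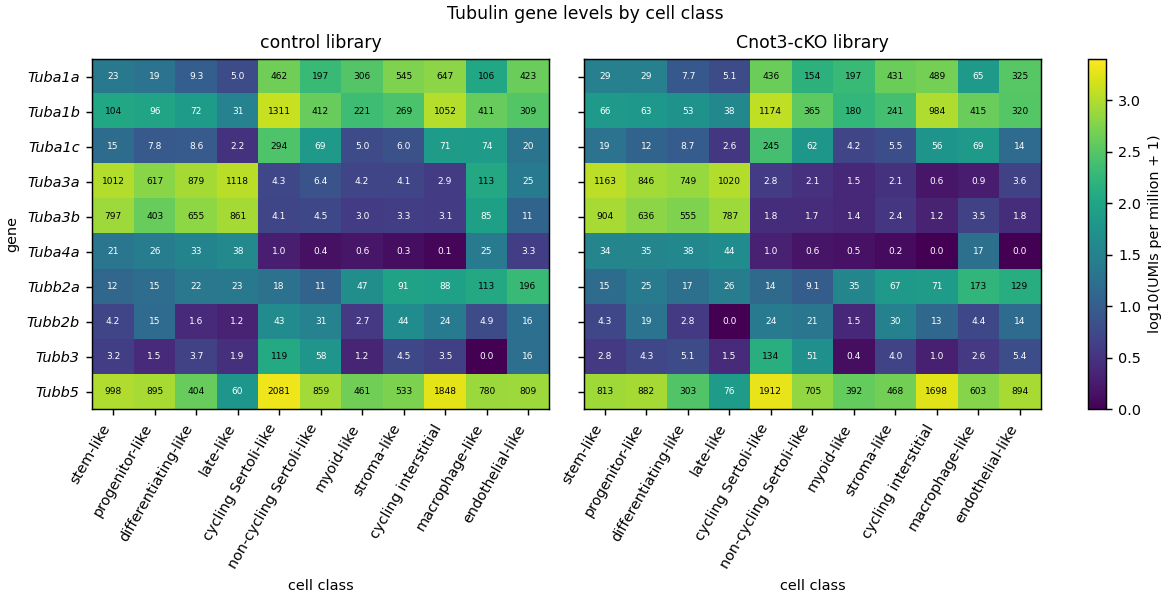
Level of the 10 tubulin genes (rows) in 11 cell classes (columns) of the control (left) and Cnot3-cKO (right) libraries, coloured by log10(CPM + 1) with CPM printed in each cell. Tuba3a and Tuba3b lie above 400 in every germ-like stage and below 7 in Sertoli-like, myoid-like, stroma-like and cycling interstitial cells. Without cells that Scrublet called doublets, the control macrophage-like values of this pair are 5.60 and 3.36.

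Counted over all 16 alpha and beta tubulin genes, each UMI standing for 1 molecule whatever its length, germ-like and somatic cells had similar shares of alpha mRNA made from different genes. Alpha genes made up 40.9% of control and 43.2% of Cnot3-cKO tubulin UMIs in germ-like cells, 37.5% and 38.3% in Sertoli-like cells and 44.8% and 43.9% in interstitial cells. Tuba3a and Tuba3b supplied 91.7% and 93.3% of the alpha UMIs of germ-like cells, and 1.17% and 0.51% of those of Sertoli-like cells. On the beta side Tubb4b, a beta gene outside the 10, supplied 70.2% and 74.1% of the germ-like UMIs, whereas Tubb5 supplied 69.6% and 71.2% in Sertoli-like cells.

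**Figure D2:**
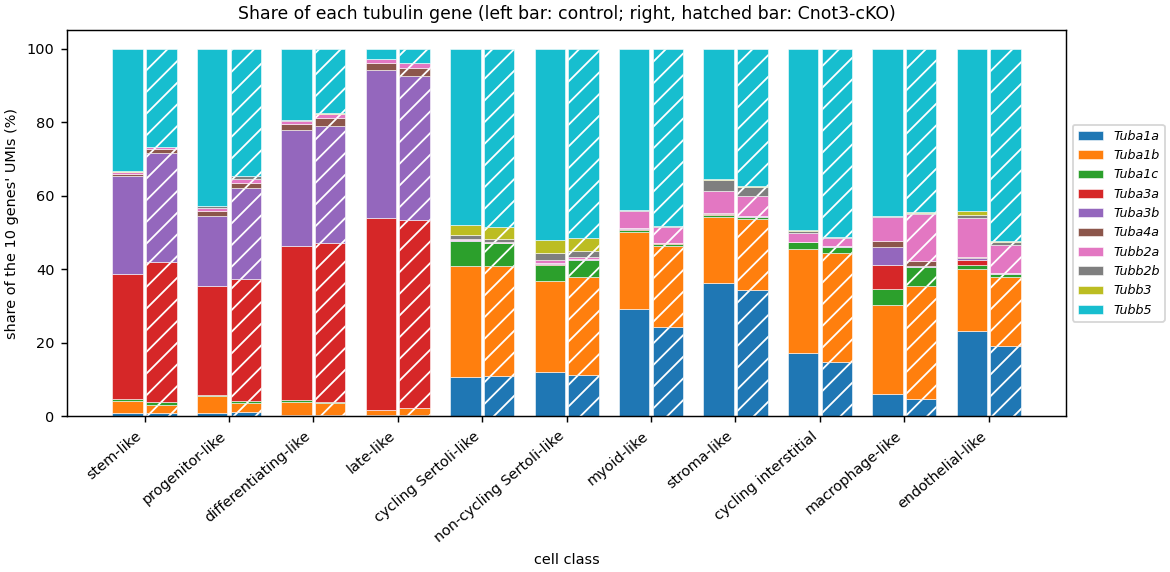
Share of each gene (colour) in the summed UMIs of the 10 tubulin genes, in percent, for 11 cell classes; the left bar of each pair is control and the hatched right bar Cnot3-cKO. Tuba3a and Tuba3b fill most of the late-like bars and are nearly absent from the Sertoli-like, myoid-like and stroma-like bars, where Tubb5, Tuba1b and Tuba1a fill most of the bar.

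Across the germ-like stages Tuba3a and Tuba3b stayed the main alpha genes, and Tubb5 supplied a varying share of the beta UMIs, from 50.2% in progenitor-like to 2.06% in late-like control cells. Tubb5 in control was at 998 CPM in stem-like (981.5 to 1015), 895.5 in progenitor-like (879 to 912), 404 in differentiating-like (394 to 414) and 59.9 in late-like cells (52.7 to 67.8), a 16.7-fold range with no overlap between any pair of stages. The late-like name rests on markers of cells nearing meiosis and was a near tie, with a marker score of 1.35 beside 1.32 for differentiating markers. In Cnot3-cKO the order was less clear, with 813 in stem-like and 882 in progenitor-like cells, the latter from 15 cells (814 to 955), then 302.5 and 75.6. Tubb4b had another course, at 1547, 855, 2149 and 2808 in the control stages and at 1918, 1156, 1914 and 2671 in the Cnot3-cKO stages, and it was the main beta gene in each stage except control progenitor-like cells. Its share of beta UMIs was 60.2%, 47.9%, 83.0% and 96.8% in the control stages and 69.4%, 55.3%, 84.9% and 95.6% in the Cnot3-cKO stages.

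Tuba3a dipped in progenitor-like cells, at 1012, 617, 879 and 1118 in the 4 control stages, and Tuba3b had the same form at 797.5, 403, 655 and 861. In Cnot3-cKO, Tuba3a was at 1163, 846, 749 and 1020, with its lowest value in differentiating-like cells, and Tuba3b at 904, 636, 555 and 787. Tuba4a increased along the control stages, at 20.7, 26.5, 33.1 and 38.5, although differentiating-like and late-like cells overlapped (30.4 to 36.1 and 32.7 to 44.9). Its Cnot3-cKO values, 34.2, 34.6, 38.1 and 44.5, overlapped between neighbouring stages.

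Tuba1b, like Tubb5, was lowest in late-like cells, at 104, 96.4, 72.5 and 30.8 in control and 66.3, 63.4, 53.2 and 37.8 in Cnot3-cKO. Tubb2b was highest in progenitor-like cells of both libraries, at 14.6 (12.6 to 16.9) in control and 18.7 (9.98 to 32.0) in Cnot3-cKO, against 4.21 and 4.26 in stem-like cells and 1.56 and 2.81 in differentiating-like cells. Late-like cells held 5 Tubb2b UMIs in control and 0 in Cnot3-cKO.

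**Figure D3:**
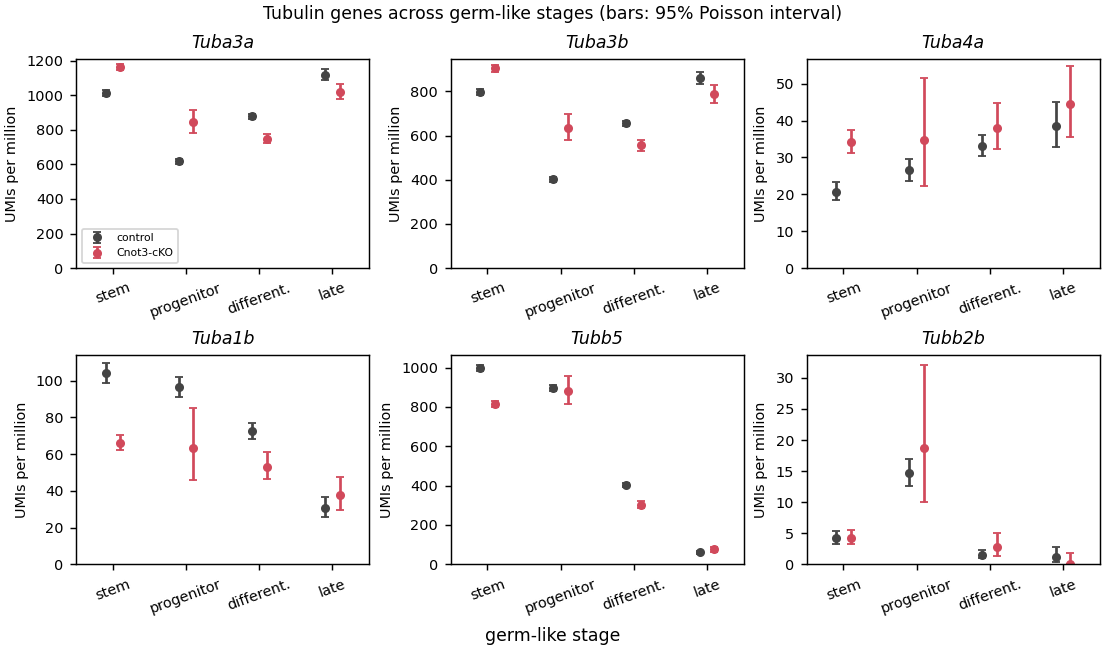
CPM of 6 tubulin genes in the stem-like, progenitor-like, differentiating-like and late-like germ cells of the control (grey) and Cnot3-cKO (red) libraries, with 95% Poisson intervals as bars; each panel has its own linear axis from 0. Tubb5 goes from 998 to 59.9 in control while Tuba3a stays between 617 and 1118, and the Cnot3-cKO progenitor-like points rest on 15 cells.

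Cycling somatic cells held more tubulin mRNA in CPM than non-cycling ones. Clusters were called cycling when at least 6 of 8 mitotic marker genes were widely detected. By this cut-off a Sertoli-like cluster of 201 control and 269 Cnot3-cKO cells, with 5 such genes, counts as non-cycling. The 10 genes together were at 4337 in cycling and 1648 in non-cycling control Sertoli-like cells, 2.63-fold, and at 3945 and 1371 in Cnot3-cKO. Tuba1c had the largest fold among the Tuba1 genes there, 294 against 68.7 or 4.29-fold, followed by Tuba1b at 1311 against 412, 3.18-fold. Tubb5 was at 2081 against 859.5, 2.42-fold, Tuba1a at 462 against 197, 2.35-fold, and Tubb3 at 119 against 58.3, 2.04-fold.

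In the interstitium the control sum was 3739 in cycling cells against 1052 in myoid-like and 1499.8 in stroma-like cells. Tuba1c again had the widest gap, at 71.4 against 4.97 and 5.98, and Tubb5 was at 1848 against 461 and 533. For Tuba1a and Tubb2a the gap depended on the class compared. Tuba1a was at 647 in cycling cells, 2.11-fold the 306 of myoid-like but 1.19-fold the 545 of stroma-like cells. Tubb2a was at 87.5 (81.0 to 94.5) in cycling cells, 1.86-fold the 47.1 of myoid-like cells, while its 91.3 (87.9 to 94.8) in stroma-like cells overlapped. Tubb2b was lower in cycling than in stroma-like cells, at 24.1 against 43.9, 0.55-fold, in control and at 13.2 against 30.1, 0.44-fold, in Cnot3-cKO. Cycling cells also had more UMIs per cell, with a median of 19553 against 12985 in control Sertoli-like cells.

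**Figure D4:**
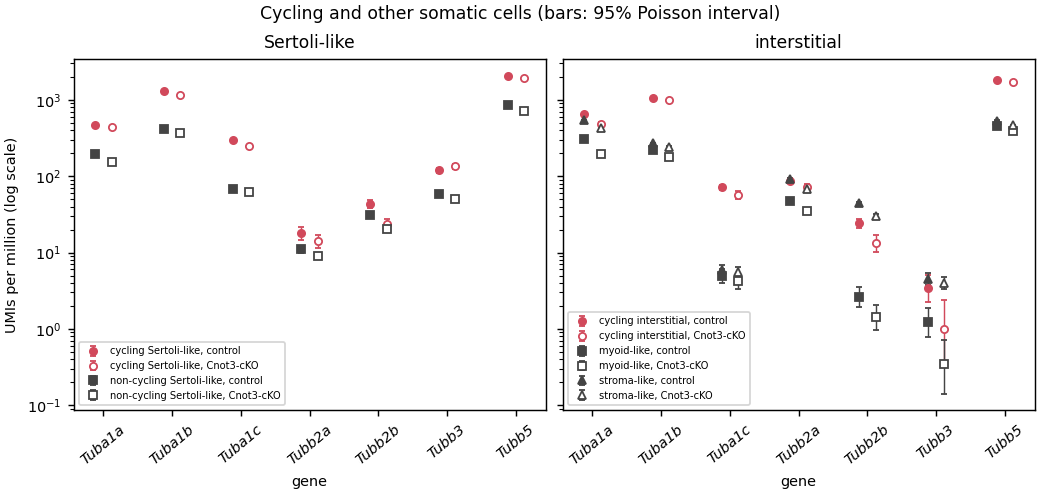
CPM (log scale) of 7 tubulin genes in cycling (red circles) and other (grey squares and triangles) Sertoli-like cells (left) and interstitial cells (right), filled for control and open for Cnot3-cKO, with 95% Poisson intervals as bars. Cycling cells lie above non-cycling Sertoli-like cells for each gene, with Tuba1c at 294 against 68.7 in control, and in the interstitium Tuba1a and Tubb2a of cycling and stroma-like cells lie close together, both above the myoid-like values.

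Between genotypes, the germ-like sum of the 10 genes was 2366 CPM (2352 to 2380) for control and 2694 (2672 to 2717) for the Cnot3-cKO library, log2 ratio 0.19 (0.17 to 0.20). This pooled ratio mixed stages in different shares. Stem-like cells were 344 of 1123 germ-like cells in control and 311 of 464 in Cnot3-cKO, and progenitor-like cells 283 and 15. By stage the log2 ratio of the sum was 0.03 in stem-like, 0.28 in progenitor-like, -0.26 in differentiating-like and -0.10 in late-like cells. With the stages weighted equally the sum gave 0.0038, and without the stem-like cluster that Cnot3-cKO held almost alone it gave -0.16, the opposite direction. The latter pool kept 39 stem-like Cnot3-cKO cells against 344 in control, so its stage mix differed too. Summed markers of cycling cells (1555 against 995 CPM), Sertoli cells (96.6 against 59.3) and stroma (182 against 151) were also higher in Cnot3-cKO germ-like cells. Their part in these ratios, and in those of single genes, was not tested.

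Of the 10 genes, 1 was in germ-like cells past 1.5-fold higher in Cnot3-cKO and 0 lower, where 7.36% and 3.76% of the 12518 genes that reached 100 UMIs there were past it in these directions; since these ratios were in view when the genes were chosen, nothing is read from the count. Their median log2 ratio was 0.23, beside 0.02 for all genes. The gene past 1.5-fold was Tuba1c, from 454 control and 319 Cnot3-cKO UMIs, with a log2 ratio of 0.63 (0.42 to 0.84). Within stem-like cells Tuba1c was at 14.98 and 18.7, a log2 ratio of 0.32 (0.05 to 0.58). In the stem-like cluster that both libraries share it was at 15.02 and 25.7, a log2 ratio of 0.77 (0.25 to 1.27), from 40 Cnot3-cKO UMIs. The other stem-like cluster held 232 of the 319 Cnot3-cKO UMIs, and without it the germ-like ratio of Tuba1c was 0.14, no longer past 1.5-fold, while Tubb5 (-0.74) and Tuba1b (-0.60) were past it in the lower direction. That left 39 stem-like, 15 progenitor-like, 81 differentiating-like and 57 late-like Cnot3-cKO cells, against 344, 283, 363 and 133 in control. These pooled ratios thus mix stages in different shares and are not ratios within a stage.

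Tuba1b was lower in Cnot3-cKO in 3 of the 4 stages, with log2 ratios of -0.65 (-0.77 to -0.53) in stem-like, -0.60 (-1.07 to -0.17) in progenitor-like and -0.45 (-0.67 to -0.23) in differentiating-like cells, and with 0.30 (-0.14 to 0.72) in late-like cells. In the shared stem-like cluster it was at 104 in 343 control cells and 82.2 in 39 Cnot3-cKO cells, a log2 ratio of -0.34 (-0.61 to -0.08), and it was at 64.4 in the 272 cells of the other stem-like cluster. Tubb5 in the shared cluster was at 999 and 890.4, a log2 ratio of -0.17 (-0.25 to -0.09), and at 804 in the other.

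Tuba3a and Tuba3b turned direction along the stages. Their log2 ratios were 0.20 and 0.18 in stem-like cells, 0.45 and 0.66 in progenitor-like cells, -0.23 and -0.24 in differentiating-like cells and -0.13 for both in late-like cells, each with an interval that excluded 0. In the shared stem-like cluster Tuba3a was at 1012 and 1050.4, a log2 ratio of 0.05 (-0.02 to 0.13), and Tuba3b at 797 and 915, 0.20 (0.12 to 0.28). Tuba4a was higher in Cnot3-cKO in each stage, with 0.72 (0.51 to 0.94) in stem-like cells, 0.53 (0.04 to 0.99) in the shared stem-like cluster, and 0.38, 0.20 and 0.21 in the later stages, whose intervals included 0.

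In stem-like cells 1 of 9 members (Tuba4a) was past 1.5-fold higher and 1 (Tuba1b) lower, where 8.89% and 4.28% of all genes were, and nothing is read from this count. Among the other members there, Tuba1a had a log2 ratio of 0.36 (0.15 to 0.58), Tubb2a 0.28 (-0.02 to 0.57), Tubb2b 0.02 (-0.52 to 0.56) and Tubb3 -0.19 (-0.84 to 0.45). Tuba1a in the shared cluster was at 22.9 in control and 23.1 in Cnot3-cKO, with 0.02 (-0.52 to 0.51). Tubb2a had the largest ratio among the members in the shared cluster, at 12.4 and 21.8, 0.82 (0.24 to 1.36), from 34 Cnot3-cKO UMIs. The Tubb2b and Tubb3 values rest on 41 to 62 UMIs per library, so only changes larger than these intervals could have been seen.

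In Sertoli-like cells, where CNOT3 was not targeted, the sum was 2055 (2041 to 2069) in the control and 1703 (1693 to 1713) in the Cnot3-cKO library, log2 ratio -0.27 (-0.28 to -0.26). Of 9 members with at least 100 UMIs, 0 were past 1.5-fold higher and 3 lower, where 1.09% and 0.969% of all 12077 genes were, a count from which nothing is read. The 3 were Tuba3a and Tuba3b, near the level estimated for free RNA, and Tubb2b, with a log2 ratio of -0.65 (-0.76 to -0.54). All 9 were below 0, with a median of -0.30 beside 0.04 for all genes. Tubb5, Tuba1b, Tuba1a and Tuba1c lay between -0.31 and -0.22, and Tubb3 was at -0.14 (-0.21 to -0.07).

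The difference stood in both kinds of Sertoli-like cells, with a log2 ratio of the sum of -0.14 (-0.16 to -0.11) in cycling and -0.27 (-0.28 to -0.25) in non-cycling cells. Tubb3 alone among the abundant members had opposite signs, at 119 and 134 in cycling cells (0.17, 0.04 to 0.31) and 58.3 and 50.5 in non-cycling cells (-0.21, -0.29 to -0.12). Summed cycling markers were at 803 in control and 656 in Cnot3-cKO Sertoli-like cells.

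In interstitial cells the sum was 1664 (1654 to 1675) in the control and 1279 (1269 to 1288) in the Cnot3-cKO library, log2 ratio -0.38 (-0.39 to -0.37). Of 9 members, 0 were past 1.5-fold higher and 4 lower (Tuba3a, Tuba3b, Tubb2b and Tuba1c), where 1.39% and 1.04% of all 12823 genes were, and again nothing is read from this. The median was -0.49, beside -0.02 for all genes. Tuba1a was at -0.47 (-0.50 to -0.44), Tubb2a at -0.45 (-0.52 to -0.38), Tuba1b at -0.34 (-0.37 to -0.31) and Tubb5 at -0.32 (-0.34 to -0.29). Tuba1c was at -0.61 in all interstitial cells but -0.24 (-0.69 to 0.20) in myoid-like, -0.11 (-0.43 to 0.21) in stroma-like and -0.34 (-0.56 to -0.13) in cycling cells, and cycling cells were 363 of 3704 in control against 246 of 3936 in Cnot3-cKO.

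The sum was lower in each interstitial class, with -0.37 (-0.40 to -0.34) in myoid-like, -0.26 (-0.28 to -0.24) in stroma-like and -0.17 (-0.20 to -0.15) in cycling cells. Among these classes Tuba1a had its lowest ratio in myoid-like cells, at 306 in control and 197 in Cnot3-cKO, -0.64 (-0.70 to -0.58). Tubb4b, which is no member, was also lower, at -0.43 in Sertoli-like and -0.50 in interstitial cells. With 1 library per genotype, a difference between mice, between sorts and between libraries cannot be told apart from one between genotypes.

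**Figure D5:**
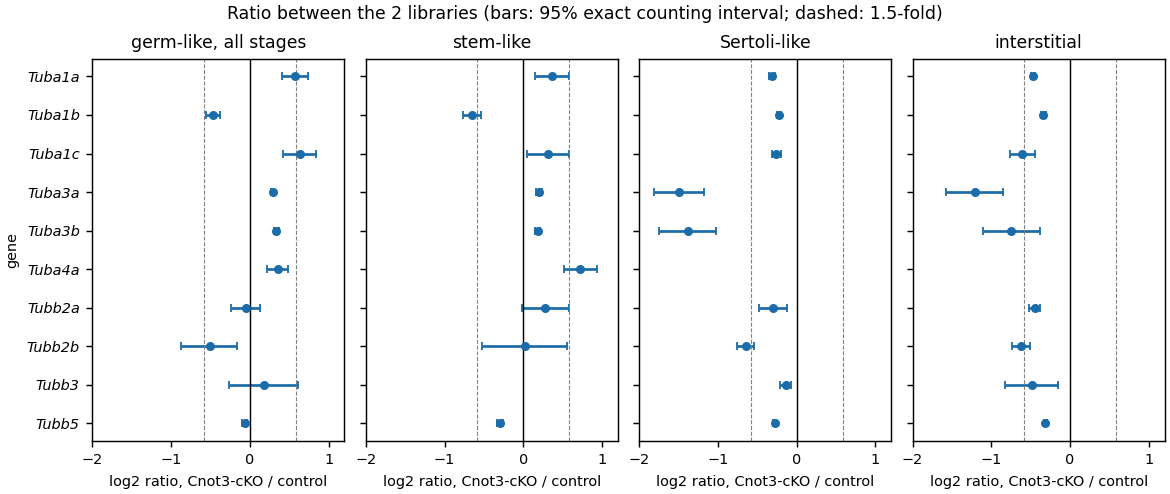
Log2 ratio of CPM, Cnot3-cKO over control, for each tubulin gene that reached 100 UMIs, over germ-like cells of all stages, stem-like, Sertoli-like and interstitial cells; bars are exact 95% counting intervals, the solid line is 0 and dashed lines mark 1.5-fold. Germ-like ratios lie on both sides of 0, and the Sertoli-like and interstitial ratios all lie below it.

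In the rare classes, with 55 and 63 macrophage-like and 37 and 42 endothelial-like cells, a few cells held most control UMIs of Tuba3a. Control macrophage-like cells held 139 Tuba3a UMIs against 1 in the Cnot3-cKO library. Of the 139, 134 were in 5 cells that Scrublet called doublets and that held 304 of the 312 Ddx4 and Dazl germ cell UMIs. The origin of this RNA was not tested beyond that call. Without Scrublet-called cells, 5 Tuba3a UMIs remained, while Tubb2a stayed at 129.9 in control and 183 in Cnot3-cKO, Tuba4a at 28.0 and 19.9, and Tubb5 at 849 and 586.

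The other alpha and beta tubulin genes gave 2 of 6 with at least 100 germ-like UMIs, Tubb4b and Tubb6. Tubb4b was at 1682 for control and 1962 for Cnot3-cKO germ-like cells, log2 ratio 0.22 (0.20 to 0.24). Tubb6, a beta isotype of many non-neuronal cells, was at 6.28 and 10.7, 0.77 (0.51 to 1.02), and at 73.1 and 57.3 in interstitial cells. Tuba8 had 6 and 1 germ-like UMIs, Tubal3 0 and 2, Tubb1 1 and 0, and Tubb4a 9 and 2.

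The genes of the autoregulation route were detected in each broad class. In germ-like cells Scaper was at 95.4 and 104 in the control and Cnot3-cKO libraries, log2 ratio 0.13 (0.05 to 0.20), Cnot11 at 79.0 and 103, 0.39 (0.31 to 0.46), and Ttc5 at 24.9 and 20.4, -0.29 (-0.45 to -0.13). None of the 3 was past 1.5-fold there. In Sertoli-like cells Ttc5 was higher than in germ-like cells, at 54.4 and 52.7, and Scaper and Cnot11 lower, at 32.8 and 35.0 and at 26.0 and 23.2. In interstitial cells Ttc5 was at 36.4 and 35.8, Scaper at 22.7 and 24.1 and Cnot11 at 19.4 and 17.5.

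Genes that act on tubulin were counted from fixed lists in germ-like cells, by the same 1.5-fold rule, past which 7.36% of all germ-like genes were higher and 3.76% lower. Of 12 gamma-tubulin ring genes, which nucleate microtubules, 1 was higher and 0 lower: Tubg2 was at 9.75 in control and 19.9 in Cnot3-cKO, and Tubg1, the list's most abundant gene, at 98.8 and 118. Of 20 folding genes, chaperonin, prefoldin and tubulin cofactor subunits, 0 were higher and 1 lower: Tbcd, a cofactor for beta tubulin, was at 12.7 and 8.43, and Cct2, a chaperonin subunit, at 778 and 907. The list medians were 0.16 and 0.14, beside 0.02 for all genes.

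Of 18 modification genes, 1 was higher and 1 lower, with a median of 0.07. In stem-like cells 4 of 16 were higher and 2 lower, where 8.89% and 4.28% of all genes were. Vash2, a vasohibin that removes the final tyrosine, was at 1.65 in control and 4.12 in Cnot3-cKO from 77 and 87 UMIs, its partner Svbp at 194 and 137, a log2 ratio of -0.50 (-0.56 to -0.44), and Ttl, the ligase that restores tyrosine, at 8.93 and 4.97. Of 26 binding genes 7 were higher and 0 lower over the pooled germ-like cells, against 7.36% and 3.76% of all genes, with a median of 0.11. Among them Camsap3, which binds microtubule minus ends, was at 6.28 and 11.8, Tpx2, a spindle assembly factor, at 80.5 and 124, Map6 at 1.52 and 2.41 and Stmn3 at 1.59 and 2.46, while Stmn1, the most abundant and a tubulin-sequestering protein gene, was at 1129 and 995.5.

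By stage the binding list differed. In stem-like cells 6 of 23 genes were higher and 0 lower, where 8.89% and 4.28% of all genes were. In progenitor-like cells, with 15 Cnot3-cKO cells, 2 of 19 were higher and 4 lower, where 6.57% and 12.6% of all 8828 genes were. Among 22 differentiating-like and 19 late-like genes 0 were past 1.5-fold in either direction, where 2.62% and 2.19% of all genes were higher and lower in differentiating-like and 0.99% and 1.35% in late-like cells.

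In Sertoli-like cells 1.09% and 0.969% of all genes were past 1.5-fold higher and lower, and in interstitial cells 1.39% and 1.04%. The folding list, of 20 genes, had a median log2 ratio of -0.03 in Sertoli-like and -0.06 in interstitial cells with 0 genes past 1.5-fold, and the gamma-tubulin ring list, of 12, had -0.01 and -0.03 with 0 past it. The binding list was at -0.02 and -0.11, with 0 of 23 and 1 of 26 genes lower and 0 higher. The modification list was at 0.04 and -0.01, with 1 of 15 and 0 of 16 genes lower and 0 higher. The gene lower in Sertoli-like cells was Ttll9, a glutamylase family member at 1.57 and 0.90 CPM, and the one in interstitial cells Stmn2, a stathmin at 1.33 and 0.57, both named after their values were seen.

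Over the 19 sums of 1 class in 1 library with at least 50 cells, the log2(CPM + 1) of Tuba3a and Tuba3b had a Pearson correlation of 0.995 with each other. Tuba3a was closest to Usp26 at 0.996, with Slc25a31 next after Tuba3b, and Tuba3b to Rbmxl2 and Dazl, both at 0.997. Tuba4a was closest to Hmox2 (0.993), Tspan13 and Xlr4a. Tuba1a went against Tuba3a at -0.90, and was closest to Sema4c (0.976), Zadh2 and Sgce, and Tuba1b to Soga1 (0.946) and Pnrc2. Tuba1c was closest to Fam110a (0.937), Herc6 and Mpdu1.

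On the beta side Tubb5 was closest to Set (0.944), Mrpl14 and G3bp1, Tubb3 to Nt5c3b (0.962), Nt5c3 and Scara5, Tubb2a to Dse (0.958), Apoe and Tnfaip8, and Tubb2b to Olfml2b (0.943), Arhgap21 and Efemp1. Tubb2a and Tubb2b had a correlation of 0.03 with each other. These points share libraries, classes and depth, so the correlations describe where genes are high and carry no p-value.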

How the data were processed

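Cells from P8 testes, sorted for CD9 and THY1, were profiled by the authors with the 10x Chromium 3′ v3.1 kit. The values are raw UMI counts deposited by the authors, made with Cell Ranger 3.0.1 and an Ensembl annotation on mm10 (per the labels and the study's methods), as 1 unfiltered matrix per genotype. No whole-series table had columns of other samples.

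Barcodes were called cells at 1/10 of the 99th UMI percentile of the top 3000 barcodes (thresholds of 7977 and 7664 UMIs, control and Cnot3-cKO) and kept at up to 20% mitochondrial UMIs. The filters the study states (10% mitochondrial UMIs and 2 SDs) were an alternative, because they removed most germ cells, and doublets called by Scrublet (499 and 454) were kept except in an alternative. Cells were clustered without tubulin and mitochondrial genes (scanpy 1.11.5, Leiden, 2500 variable genes, 30 components, 15 neighbours) and named from marker lists. The naming of finer interstitial classes, and the germ-like clusters led by somatic genes (210 and 95 cells, left unnamed and out), were settled after the data were seen.

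Levels are summed UMIs per 1000000 (CPM) with exact Poisson intervals, and ratios have exact conditional intervals, at 95%. Intervals cover counting error only, and no test was made, since each genotype is 1 library. Totals were 181550221 and 168770743 UMIs. The ratio step was tested on simulated counts for germ-like cells: 95.7% of intervals over 12518 genes held the true ratio. Free RNA was estimated from barcodes of at most 100 UMIs, scaled by markers of another class.

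Members, lists and comparisons were chosen with earlier results of these data known. Named genes are all 10 members, the other tubulins, the autoregulation genes, up to 4 genes per list and direction past 1.5-fold with at least 100 germ-like UMIs and an interval excluding 0, each list's most abundant gene, and the 3 genes most like each member among those with at least 500 UMIs. Sequences are from GENCODE M21; all 10 member IDs matched it. Of these, 1 gene like a member and 1 coding end are not reported here.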

Additional observations from a re-analysis of the deposited data

Results flagged for a closer look

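For 4 of the 10 genes the germ-like and somatic log2 ratios, Cnot3-cKO over control, pointed in opposite directions with counting intervals that excluded 0. The share of all genes that meet this rule was not computed, so nothing is read from the count. The difference between classes was not tested, since each genotype is 1 library. Tuba1a was at 0.57 in germ-like, -0.31 in Sertoli-like and -0.47 in interstitial cells. Tuba1c was at 0.63, -0.26 and -0.61. For both genes, RNA from somatic cells was not told apart from that of the germ-like cells themselves. Tuba3a was at 0.29, -1.49 and -1.21 and Tuba3b at 0.34, -1.38 and -0.75, where the somatic values are of the order of free RNA and the empty barcodes held 217 and 145 Tuba3a CPM in control and Cnot3-cKO. Tuba3a and Tuba3b were lower in Cnot3-cKO differentiating-like cells, and Tuba1a in the stem-like cluster that both libraries share was at 0.02 (-0.52 to 0.51). Without the other stem-like cluster the germ-like ratio of Tuba1a was -0.40 and that of Tuba1c 0.14, but these pools differ in stage mix and give no ratio within a stage.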

How the results depend on the processing

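Each germ-like, Sertoli-like and interstitial result was recomputed under the planned settings, and some under settings chosen after seeing the data. In control, 3 members were higher in germ-like than in both Sertoli-like and interstitial cells under every setting run, and the rare classes were not part of this count. The Sertoli-like and interstitial sums stayed below 0 throughout, with -0.25 for Sertoli-like cells under the study's filters, and -0.36 for interstitial cells as a mean over cells and -0.35 with libraries centred before clustering. Centred on the median of all genes, the sums were 0.17 in germ-like, -0.31 in Sertoli-like and -0.36 in interstitial cells. The germ-like sum was 0.14 under the study's filters, 0.28 without doublets, 0.17 without mitochondrial UMIs and 0.23 with barcodes from 3000 UMIs; progenitor-like cells could not be named in the first of these and late-like cells in the second and last. Of the settings added later, equal stage weights gave 0.0038 and leaving out the stem-like cluster of the Cnot3-cKO library -0.16, the latter with a stage mix unlike that of control. The cause of these changes beyond the cells left out was not tested.

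The count of germ-like members past 1.5-fold was 3 without doublets, 2 with empty barcodes subtracted, as a mean over cells or from 3000 UMIs, and 0 with equal stage weights or with the clusters led by somatic genes. The genes were Tuba1a and Tuba1c in each of the first 4 settings, with Tubb2b, lower, among the 3. Under the study's filters the count was 1 but the gene was Tuba1a, with Tuba1c at 0.51. Without that stem-like cluster the count was 2 and the genes others, Tubb5 at -0.74 and Tuba1b at -0.60, with Tuba1c at 0.14, from pools that differ in stage mix. It was 6 with a fold limit below 1.5 and 0 past 2-fold. The interstitial count was 2 as a mean over cells, 8 with the lower fold limit and 1 past 2-fold. Shares of all genes were computed only at 1.5-fold under the main processing, so nothing is read from the counts in this paragraph. Over single members, 68 of 68 Sertoli-like, 77 of 77 interstitial and 94 of 100 germ-like ratios kept their sign. Of 40 germ-like ratios of the members from 50 CPM the exception was Tubb5, at 0.14 under the study's filters. By stage, 55 of 60 stem-like, 47 of 50 progenitor-like, 51 of 58 differentiating-like and 27 of 34 late-like ratios kept their sign. For members from 50 CPM these counts were 24 of 24, 18 of 20, 21 of 24 and 10 of 12.

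No paired analysis was possible because the 2 samples of each genotype, which may not be separate mice, are merged in 1 matrix. For the same reason no sample could be left out. Depth limits Tubb2b and Tubb3 in germ-like cells, and every value of the 15 Cnot3-cKO progenitor-like cells.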
